A study of Homo sapiens with 15 samples.

Results

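The 2052 regions described here are stretches of the human autosomes on which the transcription factors GATA2 and RUNX1 and the cohesin subunit SMC3 were all called as bound, both in TF-1 cells expressing RAD21 Q592* and in TF-1 cells expressing WT RAD21. Peaks of the 6 deposited peak lists on chromosomes 1 to 22 that overlapped by at least 1 bp were joined, which gave 96158 regions, and the regions with at least 1 peak from each of the 6 lists were kept. They were thus chosen by the measured peak calls themselves, and they make up 2.13% of all regions. The presence, the strength and the co-occurrence of the peaks below are therefore descriptions of the chosen regions, and no test was made of them.

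TF-1 is a cytokine-dependent human erythroleukemia line. Both lines were transduced with an inducible vector and treated with doxycycline (DOX) for 6 days. The Q592* line expressed RAD21 Q592*, in which a stop codon replaces a glutamine codon, and the WT line expressed WT RAD21. The labels do not mention removal of the cells' own RAD21 in either line, so both groups may hold it beside the vector's product. They do not say whether a line was 1 clone or a pool. Each line had 2 libraries per target and 2 inputs, except that RUNX1 in Q592* had 1 library, for 15 libraries in all. Each of the 6 lists is 1 call, 3 per line. It is pooled over the libraries of its group, with no value per library, except that the Q592* RUNX1 list rests on its 1 library. Differences between the lines thus have no replicate check and carry no p-value.

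Cohesin is a ring-shaped complex that holds DNA strands together and extrudes chromatin loops. SMC3 is part of its ring, and RAD21 is the subunit that closes the ring. Most strong cohesin sites in mammalian cells lie where the zinc finger protein CTCF stops the moving ring, and weaker cohesin signal is found at active promoters and enhancers. GATA2 is a zinc finger factor that binds GATA motifs and is needed by blood stem and progenitor cells. RUNX1 binds DNA together with CBFB, is needed for blood stem cells to form, and often occupies the same enhancers as GATA2 in blood progenitors.

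The regions were wider than most. Their median width was 693 bp (quartiles 546 and 889 bp, range 242 to 2678 bp), against 297 bp for all 96158 regions, and 1652 of them (80.5%) held exactly 1 peak of each list. In 1927 regions (93.9%) at least 1 base lay under a peak of every list, so that the other regions were joined only through a chain of overlapping peaks. A summit of every list fell within 200 bp in 1497 regions (73.0%), and the median stretch that held a summit of every list was 131 bp. No gene names, promoters or sequences are given for the regions, since no annotation or sequence of hg19 was used here.

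A list differed widely in how much of it the regions took up. Of the RUNX1 peaks on autosomes, 2150 of 15216 in Q592* (14.1%, Wilson 95% interval 13.6 to 14.7%) and 2127 of 9399 in WT (22.6%, 21.8 to 23.5%) lay in them. The share was 2103 of 57483 GATA2 peaks in Q592* (3.66%, 3.51 to 3.82%) and 2182 of 38063 in WT (5.73%, 5.50 to 5.97%). For SMC3 it was 2150 of 31878 peaks in Q592* (6.74%, 6.47 to 7.03%) and 2271 of 41215 in WT (5.51%, 5.29 to 5.73%). The intervals cover counting error only, and the share moves with the length of a list: the shorter list of each target gave the larger share.

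The edge of the set was drawn mainly by SMC3 in Q592* and by RUNX1 in WT. Of the 2599 regions called in 5 lists, 1555 lacked only Q592* SMC3, against 188 that lacked only WT SMC3. The list that was missing was WT RUNX1 in 651 regions, against Q592* RUNX1 in 122. A missing GATA2 list was rare, with 5 regions that lacked only Q592* GATA2 and 78 that lacked only WT GATA2. For each target the list missing more often was its shorter list. Over all regions, SMC3 was called in 31666 in Q592*, 40491 in WT and 28781 in both lines. RUNX1 was called in 15018 in Q592*, 9270 in WT and 7718 in both, and GATA2 in 57275, 37391 and 32433. Of the 1555 regions without a Q592* SMC3 peak, 76 had one within 1000 bp. The peaks just inside the edge sat at the threshold of the authors' lists. At chr15:96472546-96472999 the Q592* SMC3 peak had 42 ChIP reads over its summit and a −log10 q of 2.00, the lowest value among all peaks of the 2052 regions, while GATA2 there stood at percentile 82.2 of its list in Q592* and 54.0 in WT. The lowest of a region's −log10 q values was under 3 in 168 regions (8.19%) and at least 10 in 429 (20.9%).

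GATA2 was the strongest of the 3 targets at these regions, and SMC3 the weakest. Ranked within its own list by −log10 q, the strongest GATA2 peak of a region had a median percentile of 95.3 in Q592* and 92.8 in WT. RUNX1 stood at a median percentile of 79.2 in Q592* and 66.2 in WT. SMC3 stood at 18.9 in Q592* and 38.2 in WT. The deposited fold enrichment over the local background, an authors' value, had a median of 16.0 in Q592* and 10.2 in WT for GATA2, of 6.76 in Q592* and 5.09 in WT for RUNX1, and of 3.61 in Q592* and 4.45 in WT for SMC3.

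**Figure D1:**
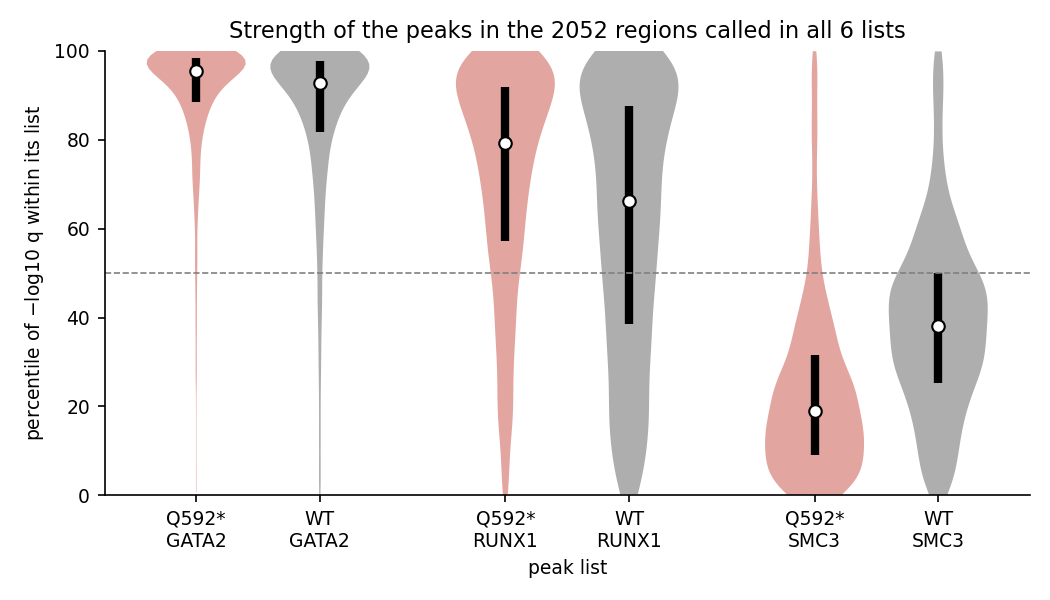
Percentile of −log10 q of the strongest peak of each region within its own list (vertical axis, 0 to 100) for the 6 lists, with Q592* in red and WT in grey. Violins show the 2052 regions, dots the medians and bars the quartiles. The medians are 95.3 in Q592* and 92.8 in WT for GATA2, 79.2 in Q592* and 66.2 in WT for RUNX1, and 18.9 in Q592* and 38.2 in WT for SMC3. The dashed line marks the middle of a list.

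The regions took in most of the top 1% of the GATA2 peaks, but only 25.3% of the top decile in Q592* and 32.0% in WT. They held 353 of the 578 peaks in the top 1% of the Q592* GATA2 list (61.1%) and 256 of the 384 in the top 1% of the WT list (66.7%). The weakest quartile of the same lists had 0.216% of its peaks in the regions in Q592* and 0.902% in WT. For RUNX1 the shares in Q592* were 58.8% of the top 1%, 39.7% of the top decile and 5.12% of the weakest quartile. In WT they were 65.3%, 47.1% and 14.5%. SMC3 ran the other way, with 0.972% of the strongest quartile and 17.8% of the weakest quartile in Q592*, and 1.03% and 6.28% in WT. In the WT SMC3 list the largest share, 10.8%, was in the second weakest quartile.

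Region by region, a strong GATA2 peak and a weak SMC3 peak were each common. GATA2 lay in the top decile of both its lists in 1192 regions (58.1%). SMC3 lay in the weaker 50% of both its lists in 1536 regions (74.9%), and both held in 858 regions (41.8%), fewer than 50% of them. The lowest of the 6 percentiles belonged to Q592* SMC3 in 1402 regions (68.3%), to WT SMC3 in 275 and to WT RUNX1 in 250. The highest belonged to Q592* GATA2 in 1247 regions (60.8%). Across the 2052 regions, which share the same libraries within a line, the −log10 q of SMC3 ran with that of GATA2 only weakly (Spearman rho 0.20 in Q592* and 0.19 in WT). GATA2 and RUNX1 gave a rho of 0.24 in Q592* and 0.21 in WT. Pearson correlations were 0.007 in Q592* and 0.021 in WT for SMC3 with GATA2, and 0.27 and 0.28 for GATA2 with RUNX1. Between the lines GATA2 kept its order most closely (rho 0.94), then RUNX1 (0.83), and SMC3 least (0.51). By Pearson correlation between the lines the targets hardly differed, at 0.92 for GATA2, 0.90 for RUNX1 and 0.91 for SMC3. Most SMC3 values were low, with quartiles of −log10 q of 5.58 and 12.9 in Q592*, against 82.9 and 279 for GATA2.

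GATA2 was also strong relative to regions with another mix of targets. At the 1555 regions that lacked only Q592* SMC3, the median GATA2 fold enrichment was 10.5 in Q592* and 7.97 in WT. At 2185 regions with GATA2 and RUNX1 in both lines and no SMC3 it was 8.64 in Q592* and 5.60 in WT, and at 1731 regions with GATA2 and SMC3 in both lines and no RUNX1 it was 7.22 in Q592* and 4.81 in WT. SMC3 was strong where it stood alone: at 22255 regions with SMC3 in both lines and neither factor its median fold enrichment was 6.78 in Q592* and 7.10 in WT. These groups were set by the same lists, so the order of their strengths is a description.

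A small number of regions were strong for all 3 targets. Only 14 of the 2052 stood above percentile 75 in all 6 lists, and 2 above percentile 90. The foremost was chr2:134875750-134876445, whose lowest percentile was 97.6, in the WT RUNX1 list. In Q592* GATA2 was enriched 42.6-fold, RUNX1 23.3-fold and SMC3 19.4-fold, against 14.1, 9.24 and 16.6 in WT. ChIP reads over the summit numbered 584, 296 and 298 in Q592* and 256, 151 and 243 in WT, in the same order of targets. All 6 summits lay within 178 bp, and the SMC3 summit stood 167 bp from the GATA2 summit in Q592* and 176 bp in WT.

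The next in rank, chr12:57381175-57382645, had fold enrichments of 49.2 for GATA2, 16.7 for RUNX1 and 13.6 for SMC3 in Q592*, against 21.2, 7.61 and 12.1 in WT. Here GATA2 and RUNX1 had summits 7 bp apart in Q592* and 40 bp apart in WT, while SMC3 lay 740 bp away in Q592* and 720 bp away in WT. A comparable separation was seen at chr21:34571029-34572733, where SMC3 lay 660 bp from GATA2 in Q592* and 695 bp in WT, and at chr3:185694712-185695622, where it lay 469 bp away in Q592* and 463 bp in WT. In the chr21 region RUNX1 lay 95 bp from GATA2 in Q592* and 324 bp in WT. At chr3:149197501-149198513 GATA2 stood apart from both others. There RUNX1 lay 647 bp from it in Q592* and 641 bp in WT, and SMC3 621 bp in Q592* and 646 bp in WT. At chr6:41903883-41904510 the SMC3 summit was 51 bp from that of GATA2 in each line and all summits lay within 54 bp. Strong signal of all 3 targets in 1 region thus came both with joint and with separate summits.

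At the 2 regions with the highest GATA2 and the highest RUNX1 −log10 q in Q592*, SMC3 had far fewer reads than either factor. The region with the highest GATA2 −log10 q in Q592* among the 2052, chr10:9849306-9850609, had 848 GATA2, 368 RUNX1 and 68 SMC3 reads at the summits in Q592*, against 553, 181 and 64 in WT. Its GATA2 and RUNX1 peaks were at or above percentile 99.8 in both lines, and its SMC3 peak at 32.5 in Q592* and 64.0 in WT. By fold enrichment GATA2 in this region was lower in Q592*, at 52.1 against 69.6 in WT. The region with the highest RUNX1 −log10 q in Q592*, chr3:167658859-167660211, had 623 GATA2, 541 RUNX1 and 75 SMC3 reads in Q592*, against 332, 308 and 79 in WT. These 2 regions were picked after their values were seen.

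To compare the lines, the number of ChIP reads over each summit was recovered from the deposited fold enrichment and p-value and divided by the recovered total of the pool. The pools held between 93.4 and 108 times 1000000 ChIP reads, and the values below are reads per 1000000 reads of the pool (RPM). GATA2 had a median of 2.52 RPM in Q592* (267 reads) and 1.23 in WT (132 reads). RUNX1 had 0.946 RPM in Q592* (101 reads) and 0.573 in WT (60 reads). SMC3 had 0.524 RPM in Q592* (49 reads) and 0.454 in WT (47 reads). The RPM of a region was higher in Q592* in 2043 of 2052 regions for GATA2, in 2029 for RUNX1 and in 1596 for SMC3 (568 for SMC3 by the deposited fold enrichment). These are 99.6%, 98.9% and 77.8% of the members, where 98.6%, 97.4% and 67.6% of all regions with the target in both lines were higher in Q592*, so that for GATA2 and RUNX1 the share was near that of all regions. All 3 targets were higher by reads in 1576 regions (76.8%), close to the 77.8% for SMC3 alone, whose direction changed with the scale. With 1 list on each side, a difference between the lines cannot be told apart from a difference between their libraries.

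**Figure D2:**
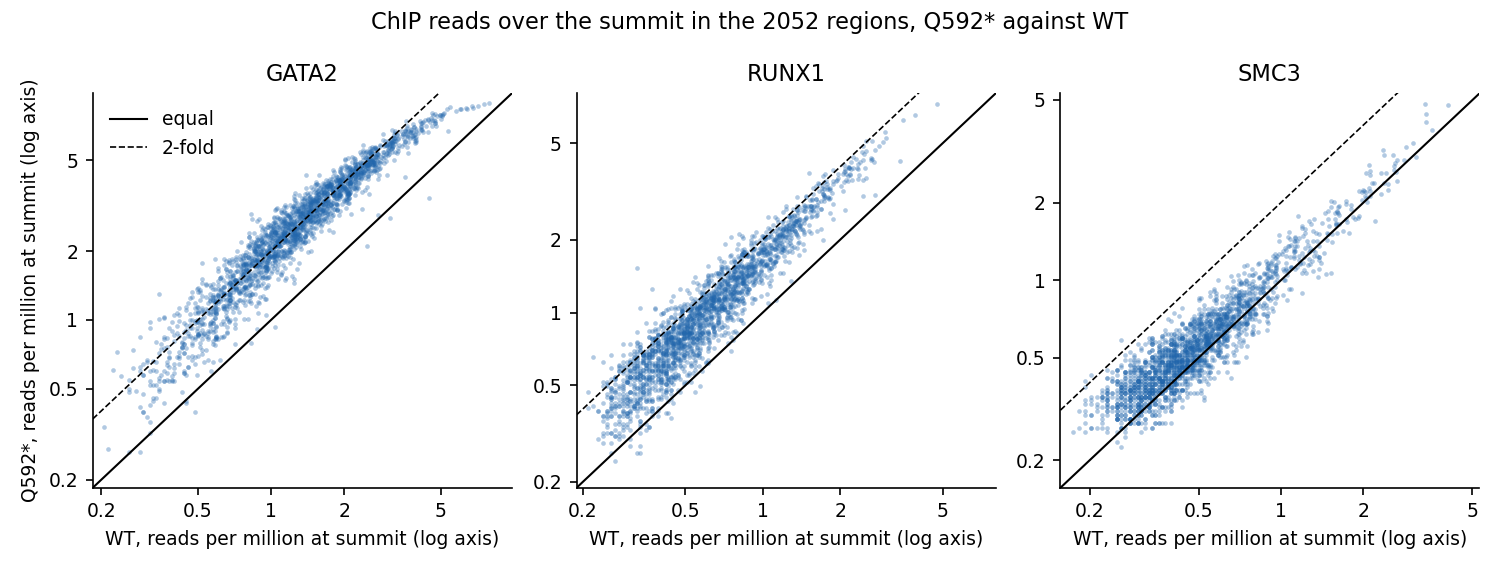
ChIP reads over the summit, in RPM, in Q592* (vertical, log axis) against WT (horizontal, log axis) for GATA2, RUNX1 and SMC3, 1 point per region. The solid line marks equal values and the dashed line a 2-fold higher value in Q592*. In 2043 of 2052 regions GATA2 lies above the solid line, RUNX1 in 2029 and SMC3 in 1596 (568 by fold enrichment), against 98.6%, 97.4% and 67.6% of all regions with the target in both lines (42.7% for SMC3 by fold enrichment). The GATA2 points bend towards the solid line at the highest reads.

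GATA2 was at least 2-fold higher in Q592* in 934 of the 2052 regions (45.5%), where 28.2% of all 32433 regions with a GATA2 peak in both lines were. The median log2 ratio of Q592* over WT was 0.97 (quartiles 0.82 and 1.13), against 0.80 at all those regions. RUNX1 was at least 2-fold higher in 242 regions (11.8%), near the 9.7% of all 7718 regions with RUNX1 in both lines, and its median log2 ratio was 0.74 (quartiles 0.54 and 0.89), against 0.65 at all of them. SMC3 was at least 2-fold higher in 3 regions (0.146%), where 0.341% of all 28781 regions with SMC3 in both lines were, and its median log2 ratio by reads was 0.19 (quartiles 0.02 and 0.38), against 0.12 (by fold enrichment −0.29, against −0.10). No member was 2-fold lower in Q592* for any target. The same held for nearly all regions with the target in both lines, where 0 were 2-fold lower for GATA2, 0 for RUNX1 and 1 for SMC3. The rule required a peak in both lines, so a region that lost a target in either line could not be among the members, and none of these ratios is independent of that choice.

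**Figure D3:**
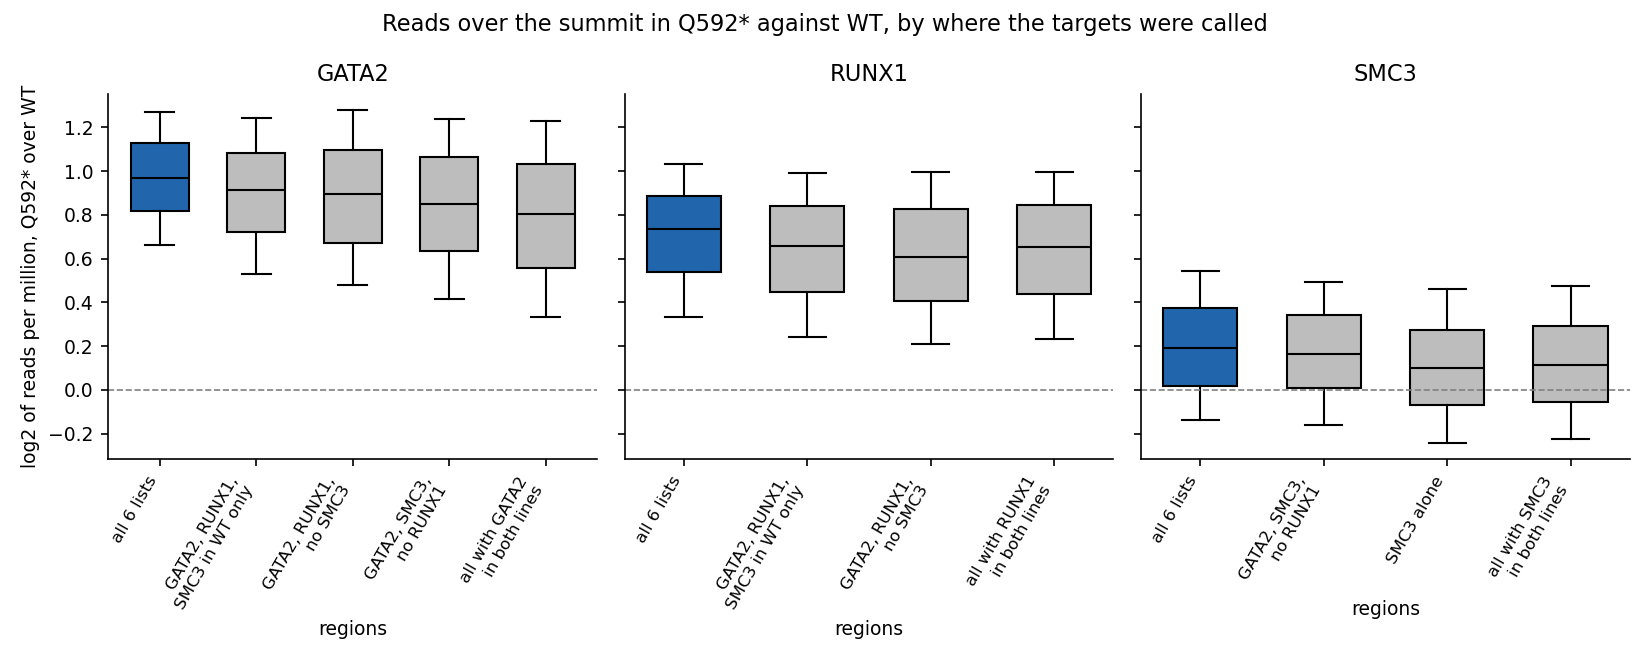
Log2 ratio of RPM at the summit, Q592* over WT (vertical axis), for GATA2, RUNX1 and SMC3 at the regions called in all 6 lists (blue) and at other classes of region (grey). Boxes span the quartiles, lines are medians and whiskers reach from the lowest to the highest 10%. The blue medians are 0.97, 0.74 and 0.19, against 0.80, 0.65 and 0.12 at all regions with the target in both lines (for SMC3 by fold enrichment −0.29, against −0.10), and the boxes overlap throughout.

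The ratios were also compared at like strength. Regions were split into quartiles of the reads of the target over both lines, among all regions with that target in both. In the strongest quartile, which held 1617 of the 2052 regions for GATA2, the median log2 ratio was 0.99 at the members and 0.95 at the others. Over the 4 quartiles the members exceeded the others by 0.04 to 0.09 for GATA2, by 0.06 to 0.10 for RUNX1 and by 0.01 to 0.10 for SMC3. Over all strengths the members exceeded all regions, members included, by 0.17 for GATA2 and by 0.08 for RUNX1 and for SMC3.

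The GATA2 ratio varied with the number of reads. By quartile of the members' reads over both lines, from the lowest to the highest, the median log2 ratio was 0.91, 1.04, 1.05 and 0.92, so that the lines were closer in the lowest quartile as well as in the highest. It was 0.74 in the top 5% (103 regions) and 0.60 in the top 1% (21 regions), where the median was 888 reads in Q592* and 587 in WT. Median fold enrichments were 25.3 in Q592* and 18.2 in WT in the top 5%, and 18.8 in Q592* and 18.0 in WT in the top 1%. The highest count was 942 reads in Q592* and 848 in WT. At chr2:171119760-171120861, the region with the highest GATA2 −log10 q in WT and picked after its values were seen, the reads were 897 in Q592* and 682 in WT. By fold enrichment GATA2 there was lower in Q592*, at 36.7 against 57.1 in WT. For RUNX1 the median log2 ratio was 0.58 in the lowest quartile, 0.80 in the highest, 0.83 in the top 5% and 0.80 in the top 1%, where reads had medians of 501 in Q592* and 279 in WT. The cause of these differences was not tested.

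For SMC3 the comparison of the lines changed with the scale. By RPM SMC3 was higher in Q592* in 1596 regions, and by the deposited fold enrichment it was higher in Q592* in 568 regions (27.7%, against 42.7% of all regions with SMC3 in both lines). The fold divides by the local background, which at the members had a median of 2.46 times the genome-wide value in the Q592* SMC3 list and 1.98 times in the WT SMC3 list, and was higher in Q592* in 1465 of the 2052 regions (71.4%). At all regions with SMC3 in both lines the background had a median of 2.31 times in Q592* and 2.22 times in WT. The excess of the members over all regions in the log2 ratio of SMC3 was 0.08 by reads, −0.01 by reads above the local background and −0.19 by fold. The narrowest peak, which stands in for the fragment length, was 151 bp in the Q592* SMC3 list and 126 bp in the WT SMC3 list. For GATA2 it was 157 bp in Q592* and 150 bp in WT, and for RUNX1 143 bp in Q592* and 139 bp in WT. Longer fragments place more reads over each summit. No direction is therefore given for SMC3 between the lines. GATA2 and RUNX1 were higher in Q592* at most members on either scale. By fold this held in 1822 regions for GATA2 (88.8%, against 80.5% of all regions with GATA2 in both lines). For RUNX1 it held in 1585 (77.2%, against 73.2% of all regions with RUNX1 in both lines). The median log2 ratio by fold was smaller than by reads, 0.65 against 0.97 for GATA2 and 0.39 against 0.74 for RUNX1. The local background was higher in Q592* at 1511 members in the GATA2 lists (73.6%) and at 1512 in the RUNX1 lists (73.7%).

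The largest GATA2 ratio was at chr4:185660618-185661159, with 137 reads in Q592* and 37 in WT (log2 ratio 1.91), with fold enrichments of 14.4 in Q592* and 3.89 in WT. RUNX1 differed most at chr13:91152776-91153599, with 163 reads in Q592* and 34 in WT (log2 ratio 2.23). There the strongest RUNX1 summit stood 39 bp from that of GATA2 in Q592* and 514 bp in WT, so the RUNX1 values of the lines come from different places in the region. RUNX1 was lowest relative to WT at chr5:57795536-57796194, with 28 reads in Q592* and 35 in WT (log2 ratio −0.35). SMC3 had its highest ratio at chr6:20574918-20576234, with 55 reads in Q592* and 27 in WT (log2 ratio 1.17; fold enrichment 6.25 in Q592* and 4.24 in WT), where GATA2 and RUNX1 were also more than 2-fold higher in Q592*. Its lowest ratio was at chr7:138728921-138729552, with 39 reads in Q592* and 68 in WT (log2 ratio −0.65).

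The 9 regions where GATA2 was lower in Q592* were few and partly clustered. Of them, 5 lay on chromosome 16 between 46385853 and 46434521, and 6 had a local background over 3 times the genome-wide value in at least 1 list. At chr16:46385853-46386890 the background reached 45.5 times the genome-wide value. GATA2 there had 360 reads in Q592* and 480 in WT, RUNX1 450 in Q592* and 358 in WT, and SMC3 274 in Q592* and 291 in WT, with fold enrichments of only 1.68, 1.74 and 1.57 in Q592* and 3.38, 2.86 and 2.50 in WT. All 3 targets thus had many reads and a low enrichment at this place. The strongest GATA2 summit was at 46386275 in Q592* and 46386719 in WT, and that of SMC3 at 46386277 in Q592* and 46386724 in WT, so these values of the lines come from different places in the region. A background above 3 times the genome-wide value in any of the 6 lists was found at 971 of the 2052 regions (47.3%), and one above 10 times at 39. Taken list by list, the share above 3 times was 33.9% at the members and 17.4% at all regions with a peak of the list for GATA2 in Q592*, and 22.5% and 12.7% for GATA2 in WT. For RUNX1 it was 34.1% at the members and 33.1% at all in Q592*, and 452 of 2052 members and 1856 of all 9270 in WT. For SMC3 it was 33.3% at the members and 32.6% at all in Q592*, and 22.6% and 29.0% in WT. At the 315 regions with a background over 5 times, GATA2 had a median log2 ratio of 0.88, RUNX1 of 0.79 and SMC3 of 0.17, against 0.99, 0.72 and 0.20 at the others. The part of the background in the calls was not tested.

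The rule asks that peaks overlap, which by itself keeps their summits near one another. Where the summits stood within the overlapping peaks was not fixed by it. GATA2 and RUNX1 were closest to each other. Their summits lay a median of 34 bp apart in Q592* (quartiles 15.8 and 68 bp) and 39 bp in WT (17 and 77 bp), and within 50 bp in 64.5% of the regions in Q592* and 59.7% in WT. SMC3 stood further off, at a median of 64 bp from GATA2 in Q592* and 67 bp in WT, and at 61.5 bp from RUNX1 in Q592* and 64 bp in WT. The SMC3 summit itself differed by a median of 49 bp between the lines, against 14.5 bp for GATA2 and 20.5 bp for RUNX1. How much of the larger SMC3 distances comes from a less exact summit was not tested. GATA2 and RUNX1 were the closest pair of the 3 summits in 1052 regions (51.3%) in Q592* and in 997 (48.6%) in WT. SMC3 was nearer to GATA2 in 972 regions and nearer to RUNX1 in 1052 in Q592*, and in 993 and 1037 in WT, an almost even split.

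**Figure D4:**
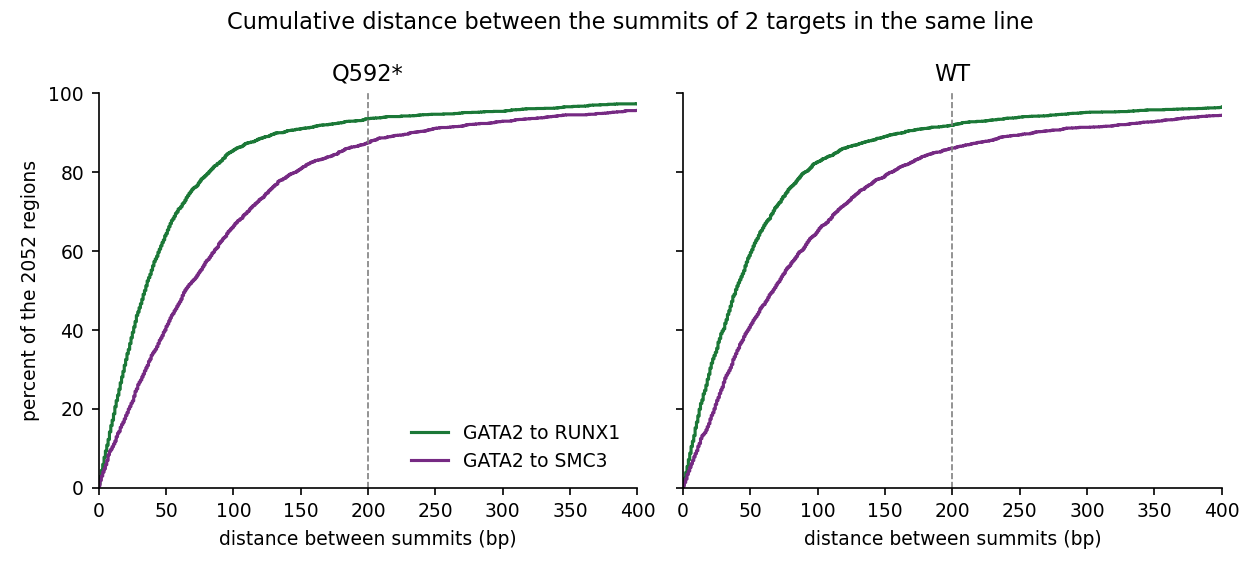
Percent of the 2052 regions (vertical axis) whose summits lie within a given distance in bp (horizontal axis), for GATA2 to RUNX1 (green) and GATA2 to SMC3 (purple), in Q592* on the left and WT on the right. The dashed line marks 200 bp. The green curves rise faster, with medians of 34 bp in Q592* and 39 bp in WT, against 64 bp in Q592* and 67 bp in WT for the purple curves.

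These spacings were close to those of other regions that held a peak of both targets in the line, joined by the same overlap. Elsewhere GATA2 and RUNX1 were 33 bp apart in Q592* and 37 bp in WT, and GATA2 and SMC3 60 bp in Q592* and 58 bp in WT. RUNX1 and SMC3 were 61.5 bp apart at the members and 52 bp elsewhere in Q592*, and 64 and 52 bp in WT. The members were also wider than the rest, and distances were not matched for width.

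Between the lines the GATA2 summit moved least. Its median shift from WT to Q592* was 14.5 bp, against 20 bp at other regions with GATA2 in both lines, and that of RUNX1 was 20.5 bp, against 19 bp elsewhere. The SMC3 summit shifted by a median of 49 bp, against 16 bp at other regions with SMC3 in both lines. The members' SMC3 peaks were mostly weak, and weaker SMC3 peaks had larger shifts. Within quartiles of the SMC3 −log10 q of Q592*, the shift was 61 bp in the weakest quartile at the members and 23 bp at regions with SMC3 alone, and 17 and 11 bp in the strongest. In the quartiles of the WT list the pairs were 72.5 and 27 bp in the weakest and 17 and 12 bp in the strongest. Strength within a quartile was not matched further.

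The few regions with a strong SMC3 peak had it further from GATA2. In the strongest quartile of the SMC3 list, which held 79 members in Q592* and 105 in WT, the SMC3 summit was a median of 131 bp from the GATA2 summit in Q592* and 140 bp in WT. It was over 200 bp away in 43.0% of them in Q592* and 40% in WT. In the weakest quartile, with 1317 members in Q592* and 502 in WT, the distance was 62 bp in Q592* and 72 bp in WT, and over 200 bp in 10.6% of the regions in Q592* and 13.1% in WT. The regions of the strongest quartile were also wider, at a median of 959 bp in Q592* and 919 bp in WT, against 659 bp in Q592* and 632 bp in WT in the weakest. Their GATA2 and RUNX1 summits were a median of 43 bp apart in Q592* and 55 bp in WT, against 35 bp in Q592* and 40 bp in WT in the weakest quartile. In 77 regions SMC3 was in the strongest quartile of both lists. The widest region of all, chr2:146507865-146510542, held 10 peaks, and its SMC3 summit was 1205 bp from GATA2 in Q592* and 1235 bp in WT.

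**Figure D5:**
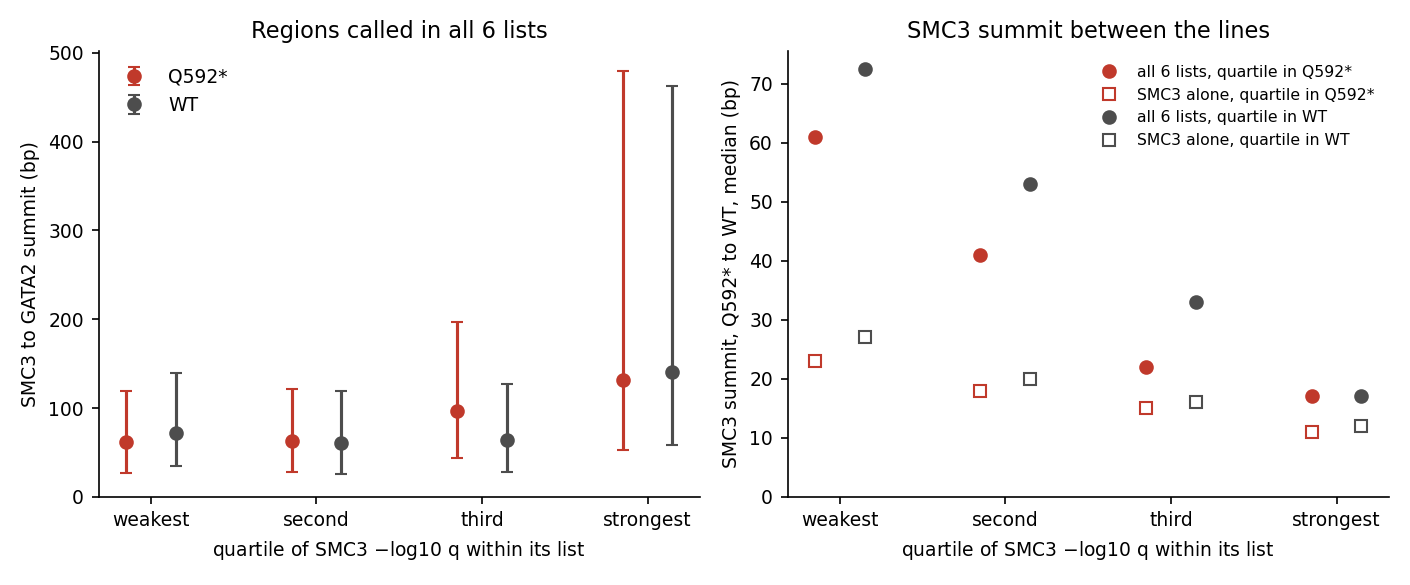
Left, distance in bp from the SMC3 to the GATA2 summit by quartile of SMC3 −log10 q within its list, for Q592* (red) and WT (grey); dots are medians and bars the quartiles over regions. Right, median shift in bp of the SMC3 summit between the lines at the regions called in all 6 lists (filled circles) and at regions with SMC3 alone (open squares). The left medians reach 131 bp in Q592* and 140 bp in WT in the strongest quartile, and on the right the filled circles lie above the open squares in every quartile.

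Joint and separate summits were both seen at the strongest SMC3 peaks as well. The regions with the highest SMC3 −log10 q were picked after their values were seen. At chr10:4890443-4892552, which had the highest SMC3 −log10 q in Q592*, SMC3 had 447 reads in Q592* and 422 in WT and lay 1123 bp from the GATA2 summit in both lines. At chr13:91669101-91670185 SMC3 had 411 reads in Q592* and 349 in WT, and SMC3 lay 1 bp from GATA2 in Q592* and 17 bp in WT. At chr21:30117212-30118403, with the highest SMC3 −log10 q in WT, SMC3 had 258 reads in Q592* and 267 in WT and lay 2 bp from GATA2 in Q592* and 7 bp in WT. RUNX1 stood apart there, 707 bp from GATA2 in Q592* and 678 bp in WT.

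The regions were spread over all 22 autosomes and 1002 windows of 1 Mb, of 2697 windows that held any region. They made up between 1.12% of the regions of chromosome 17 and 2.70% of those of chromosome 6. The window with the most was 91 to 92 Mb of chromosome 13, with 13 of its 228 regions, then 61 to 62 Mb of chromosome 1, with 10 of 141. At 65 to 66 Mb of chromosome 1 there were 9 of 116, as many as at 171 to 172 Mb of chromosome 3 and at 135 to 136 Mb of chromosome 6. The 13 regions on chromosome 13 included chr13:91795529-91796941, with 891 GATA2 and 666 RUNX1 reads in Q592* and 728 and 367 in WT. By fold enrichment both factors were lower there in Q592*, at 18.8 for GATA2 and 12.2 for RUNX1, against 26.6 and 14.8 in WT. The local background of this region was up to 9.44 times the genome-wide value, reached in the Q592* RUNX1 list. Chromosome 13 from 75 to 100 Mb held 48 members, whose median log2 ratio for GATA2 was 0.86, against 0.99 at the 34 members on the rest of the chromosome and 0.97 at the 1970 on other chromosomes.

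Members also lay near one another. Another member was within 10 kb of 13.7% of them, against 5.14% of all regions. The share was 7.52% of the regions that lacked only Q592* SMC3 and 7.63% of those with GATA2 and SMC3 but no RUNX1. It was 3.84% of those with GATA2 and RUNX1 but no SMC3, and 1.82% of those with SMC3 alone. Regions of any kind were also nearer, with 1 within 10 kb of 88.0% of the members and 70.9% of all regions. The nearest region of any kind was a median of 1914 bp away, against 4365 bp for all regions.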

How the data were processed

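The deposited files are 6 peak lists, 1 per line and target. The authors used MACS2, Bowtie2, Picard and the build hg19, per the submitters' processing notes. The sources used here give neither versions nor settings. The word merge in the deposited peak names was read as 1 pooled call per group, though the group of RUNX1 in Q592* has 1 library. It is not known which input libraries a list was called against. The deposited fold enrichment is a ratio, the pileup of ChIP reads over the summit divided by the local background. The authors' deposited −log10 p and −log10 q are also values of the summit. A deposited score repeats the −log10 q on another scale and was left out. The summit offset, another deposited column, gave the summit positions. All coordinates are hg19, counted from 1.

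ChIP reads over each summit were recovered as the whole number that gives both the fold and the p-value, to within 0.002 of the deposited −log10 p. At least 99.95% of the peaks of each list came out whole, and no more than 1.71% after a 3% error was put into the assumed weight of a read. Totals assume an effective genome of 2700000000 bp and fragments as long as the narrowest peak of the list. These lengths, from 126 to 157 bp, are shorter than the fragments of 200 to 400 bp that the labels give. The recovered totals per pool, as multiples of 1000000 ChIP reads, were 106, 107 and 93.4 for GATA2, RUNX1 and SMC3 in Q592*, and 108, 105 and 104 in WT. In lists of 5196 and 4787 simulated peaks, 99.87% and 99.94% of the reads came back exact. The Wilson intervals cover counting error only, and PCR copies of 1 molecule are not independent.

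Each region was described by its strongest peak of each list. The members, the comparison classes and the rules for named regions were chosen with earlier results of these data known. Regions are named by rank: the highest lowest percentile, the lowest lowest −log10 q, the extreme ratios per target, the densest windows of 1 Mb and the widest; others are marked as picked after their values were seen. No test was run, since each group has 1 list and the lists chose the regions. Values were computed in Python 3.11.15 with pandas 2.3.3, numpy 2.4.6 and scipy 1.17.1, and plots were drawn with matplotlib 3.10.9.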

Additional observations from a re-analysis of the deposited data

How the results depend on the processing

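Of 65 alternatives, 23 left a value within the set limits, 40 moved it and 2 turned its direction, and the cause was not tested. The limits were wide for the number of regions. Counts of 1389 with lists of equal length and 1497 with summits of all lists within 200 bp were still held to be within them. The 2052 regions became 429 with a −log10 q of at least 10, 62 with at least 20, and 1081 without regions of a local background over 3 times the genome-wide value. The share of peaks in the regions, for GATA2, RUNX1 and SMC3, was 3.42%, 13.2% and 6.33% in Q592* and 5.35%, 21.2% and 5.14% in WT where 1 base had to lie under a peak of every list. With a −log10 q of at least 10 it was 1.16%, 4.35% and 1.80% in Q592* and 1.98%, 8.37% and 1.61% in WT. With lists of equal length it was 15.1% for RUNX1 and 4.61% for SMC3 in Q592*, against 3.89%, 15.3% and 4.57% for GATA2, RUNX1 and SMC3 in WT. In the log2 ratio of Q592* over WT, the members exceeded all regions of the target by 0.17 (GATA2), 0.08 (RUNX1) and 0.08 (SMC3). For GATA2 this excess was 0.082 with a −log10 q of at least 10, 0.11 with equal lists, 0.23 without high background and 0.14 with reads above the local background. For RUNX1 it was 0.062 with equal lists and 0.058 by fold. For SMC3 it was 0.044 with equal lists, 0.042 without high background, −0.19 by fold and −0.0065 with reads above the local background, the last an alternative chosen after seeing the data.

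With a −log10 q of at least 10, summits in Q592* lay 32 bp (GATA2 to RUNX1), 77 bp (GATA2 to SMC3) and 67 bp (RUNX1 to SMC3) apart, those of SMC3 in WT 72 bp from GATA2 and 68 bp from RUNX1, and the shifts between the lines were 13 bp for GATA2, 18 bp for RUNX1 and 34 bp for SMC3. With exactly 1 peak of each list, SMC3 lay 59 bp from GATA2 and 56 bp from RUNX1 in Q592*, and 59 bp from GATA2 and 58 bp from RUNX1 in WT. No paired analysis was possible because the lists with 2 libraries are pooled and hold no value per library, so no library could be left out either. Shares of regions near start sites or with a motif were not run, since no hg19 annotation or sequence was used here. Weaker peaks than the authors' threshold cannot be seen, and at a median of 49 and 47 SMC3 reads per summit in Q592* and WT a region's own SMC3 ratio is imprecise.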
